A study of Mus musculus with 14 samples.

Results

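The genes described here are the transcription factor NRF2 (gene Nfe2l2), its inhibitor KEAP1 (Keap1) and 7 antioxidant genes commonly listed as NRF2 targets, namely Nqo1, Hmox1, Osgin1, Gclm, Gclc, Srxn1 and Txnrd1. They were chosen by symbol from the 55291 gene symbols of the series, and all 9 were found and passed the filter on low counts that left 21761 genes for testing. RNA of mouse tibia was sequenced in 14 libraries from wild-type C57Bl/6 females. After ovariectomy (OVX), 3 libraries came from the group that received hippuric acid (OVX-HA), 2 from the group that received 3-(3-hydroxyphenyl)propionic acid (OVX-PPA), 3 from the group on zoledronic acid (OVX-ZA) and 3 from the group on PBS, phosphate-buffered saline (OVX-PBS). A further 3 libraries came from mice with sham surgery (sham). Dosing started 2 to 4 days after surgery and went on for 8 weeks. The sources used here do not state ages, doses or what sham mice received. Hippuric acid and 3-(3-hydroxyphenyl)propionic acid are small aromatic acids that circulate after gut microbes break down dietary polyphenols, and zoledronic acid is a bisphosphonate that blocks bone resorption by osteoclasts.

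In unstressed cells KEAP1, an adaptor of the CUL3 ubiquitin ligase, holds NRF2 in the cytoplasm and hands it over for degradation. Electrophiles and oxidants modify KEAP1, NRF2 then builds up in the nucleus, pairs with a small MAF protein and binds antioxidant response elements near its target genes. This control acts on the NRF2 protein, so the level of Nfe2l2 mRNA alone does not measure NRF2 activity. In bone, oxidative stress and the loss of estrogen are studied together, and NRF2 is known to restrain osteoclast formation in mice.

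The antioxidant response element was searched for near the start of each gene, since this is the sequence through which NRF2 acts. RefSeq promoter windows of GRCm38.p6, the assembly that is also called mm10, run from 250 bases before a transcript start to 50 after it. They were matched for 7 of the 9 genes, with 3 windows for Txnrd1 and 1 for each of the others, and Hmox1 and Gclc were not searched. The motifs TGACNNNGC and TGAGNNNGC were searched on both strands. They differ at 1 base, so the same letters on the same strand cannot match both. A match was present in 5 of the 7 genes (Osgin1, Srxn1, Gclm, Nfe2l2 and 1 of the 3 windows of Txnrd1), and the windows of Nqo1 and Keap1 held none, while 30.76% of the 27025 genes in the table and 27.79% of its 32851 windows held one. The 7 matches are shown on the strand of their gene with 10 bases on each side, capitals mark the motif, and a motif on the opposite strand reads as its reverse complement.
Osgin1: aggggcccctGCTGACTCAcgcttatgaa
Srxn1 (-158): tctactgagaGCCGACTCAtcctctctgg
Srxn1 (-45): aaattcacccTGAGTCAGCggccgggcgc
Srxn1 (28): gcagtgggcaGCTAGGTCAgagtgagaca
Gclm: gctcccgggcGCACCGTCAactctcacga
Txnrd1: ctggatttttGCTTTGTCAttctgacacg
Nfe2l2: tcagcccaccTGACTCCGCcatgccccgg
The Osgin1 site lies at chr8:119437038-119437066 on the plus strand, and its motif begins 99 bases before the RefSeq start, at position -99. The Srxn1 sites lie at chr2:152105356-152105384, chr2:152105469-152105497 and chr2:152105542-152105570 on the plus strand, with motifs beginning at -158, -45 and 28. The Gclm site is at chr3:122245413-122245441 (plus strand, -134), the Txnrd1 site at chr10:82859104-82859132 (plus strand, -92) and the Nfe2l2 site at chr2:75704885-75704913 (minus strand, -240). The Srxn1 site at -45 and the Osgin1 site hold the same 9 letters read from opposite strands, TGAGTCAGC. For Osgin1 and Txnrd1 the RefSeq start of the matched window is an internal one. The gene spans given below begin further upstream, at chr8:119434124 and chr10:82833951. A match is a description of the letters in this window and not a measured binding site. Sequence outside the windows was not searched, so a window without a match does not mean that the gene lacks an element.

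Depth, in M of estimated counts per library, ran between 31.3 and 35.4 for OVX-HA, between 18.7 and 29.7 for OVX-PPA, between 11.9 and 25.1 for OVX-ZA, between 20.1 and 35.2 for OVX-PBS and between 29.2 and 32.6 for sham. Levels are in CPM, counts per M of the library total, with the total scaled by TMM, a factor per library that evens out composition. The lowest count of any of the 9 genes was 102, for Osgin1 in OVX-ZA replicate 1. OVX-HA replicate 2 and OVX-PBS replicate 1 stood apart from the rest in the expression values of these same data. The summed level of 8 central nervous system markers, such as the myelin gene Mobp, was 38.2 CPM in OVX-HA replicate 2 and 68.1 CPM in OVX-PBS replicate 1, against 347.5 to 1011 CPM in the other 12 libraries. Bone cell transcripts were present, with 8 osteoblast and osteocyte markers summing to 981.9 to 5747 CPM. Most of that sum was Col1a1 (mean 2419 CPM), and marrow and muscle transcripts lay beside them. The central nervous system transcripts of those 12 libraries are not what the label tibia names. Sensory neuron and brown fat transcripts were present too, such as Scn10a (mean 38.15 CPM) and Ucp1 (mean 114.5 CPM). Their source was not tested. Whether the libraries of a group stem from different mice is not labelled, and p-values therefore measure only how far these samples spread. In whole tibia, fewer cells of a type and less RNA per cell cannot be told apart.

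All 9 genes were expressed in every library. Compared per length, as CPM per kb of exon over 14 libraries, Hmox1 was at 20.5 ± 4.53, Srxn1 at 19.8 ± 2.57, Gclc at 17.5 ± 4.06, Nfe2l2 at 17.3 ± 1.87, Gclm at 15.1 ± 3.66, Keap1 at 14.2 ± 0.983, Nqo1 at 13.4 ± 1.59 and Txnrd1 at 11.6 ± 0.974 (mean ± SD). Neighbours in this order from Hmox1 to Nqo1 differed by less than the larger of their SDs, and Txnrd1 lay below Nqo1 by more than that. Osgin1, at 3.47 ± 0.650, was below all of them. The genes also differed in how far they ranged. The highest library exceeded the lowest 1.29-fold for Keap1 and 1.37-fold for Txnrd1, but 2.04-fold for Gclc, 2.09-fold for Hmox1 and 2.10-fold for Gclm.

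**Figure D1:**
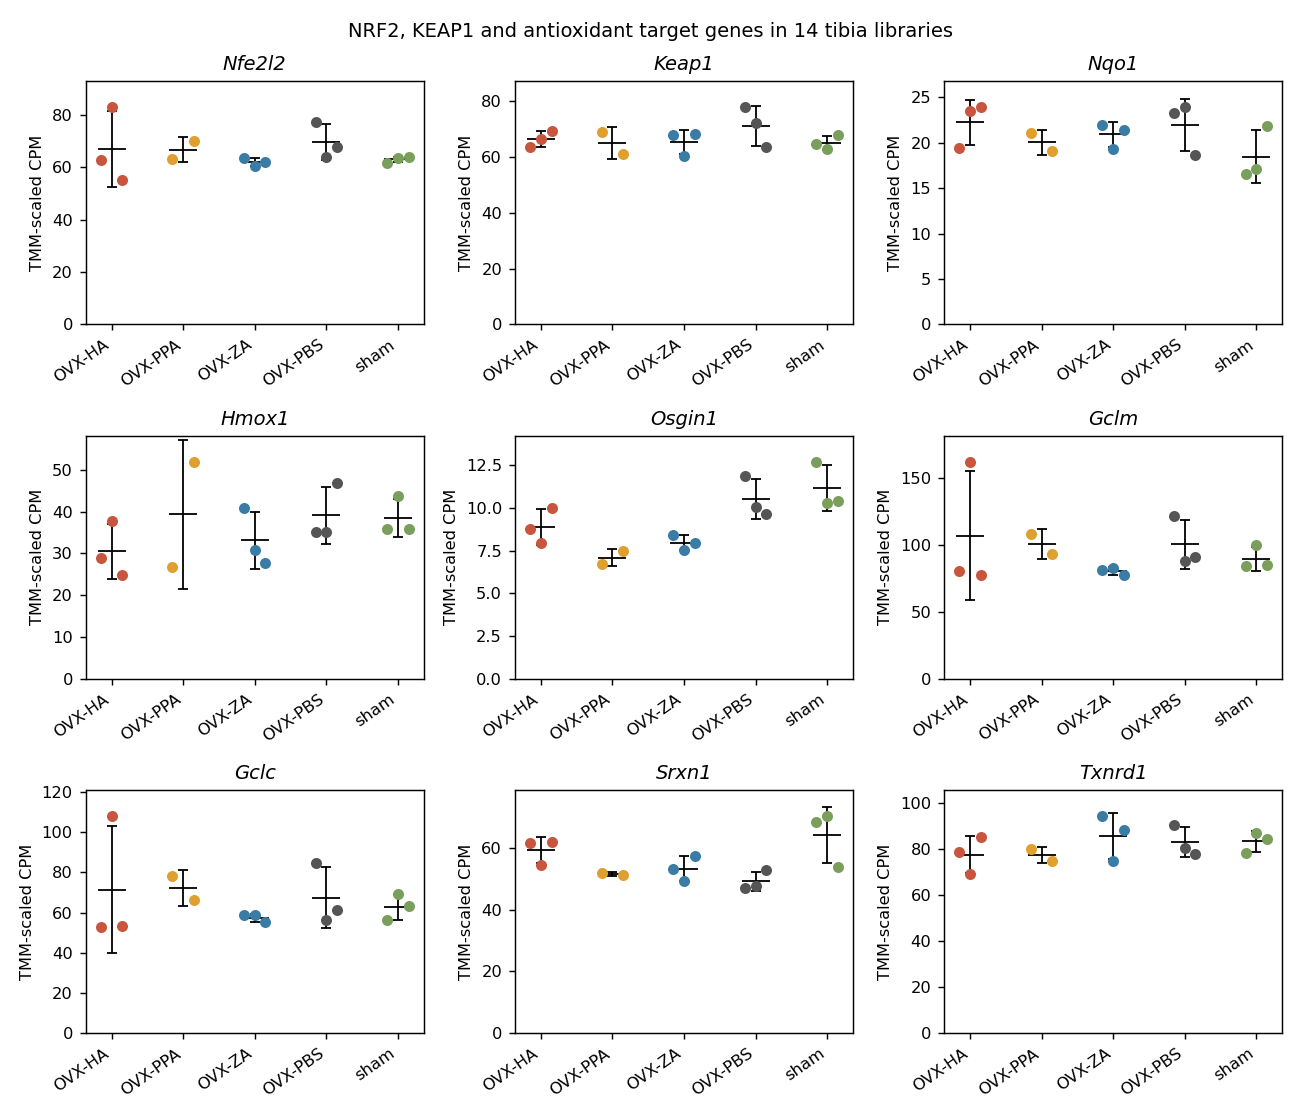
Level of each of the 9 genes in TMM-scaled CPM (vertical axis, from 0) in OVX-HA, OVX-PPA, OVX-ZA, OVX-PBS and sham; points are libraries, the bar is the group mean and the whiskers 1 SD. Osgin1 is lowest in OVX-PPA, at 6.73 and 7.46 CPM against 9.62 to 11.8 CPM in OVX-PBS, and 1 OVX-HA library stands out for Gclm (162 CPM) and Gclc (108 CPM).

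The first question is whether either phenolic acid moved these genes in OVX bone. With edgeR's quasi-likelihood test and Benjamini-Hochberg adjustment over 21761 genes at an FDR of 0.05, 0 of the 9 genes passed in OVX-HA against OVX-PBS, where 0% of all genes passed. In OVX-PPA against OVX-PBS 0 of 9 passed as well, again with 0% of all genes, and so it was for the mean of both phenolic acids against OVX-PBS (0 of 9, 0% of all genes). At an unadjusted p below 0.05, edgeR listed 319 genes (1.47%) in OVX-HA, 408 (1.87%) in OVX-PPA and 458 (2.10%) for their mean, each against OVX-PBS. DESeq2 also called 0 genes in each of the 3 comparisons and listed 364, 439 and 454 genes at an unadjusted p below 0.05. These comparisons share the 3 OVX-PBS libraries, and no value below is a call.

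The regulators came first in role and moved little. Nfe2l2 (chr2:75675513-75704641, minus strand) encodes NRF2 and read 62.8, 83.0 and 55.1 CPM in OVX-HA and 63.3 and 70.1 CPM in OVX-PPA, against 77.3, 64.0 and 67.7 CPM in OVX-PBS. The groups overlapped, and OVX-HA replicate 2 held the highest level of all 14 libraries. The log2 difference was -0.06 ± 0.13 (SE) in OVX-HA and -0.06 ± 0.15 in OVX-PPA, with 95% intervals of -0.35 to 0.23 and -0.39 to 0.26. Keap1 (chr9:21229730-21239361, minus strand) read 63.6, 66.4 and 69.1 CPM in OVX-HA and 68.85 and 60.9 CPM in OVX-PPA, against 77.8, 71.9 and 63.6 CPM in OVX-PBS. Its log2 differences were -0.10 ± 0.10 and -0.13 ± 0.11 for OVX-HA and OVX-PPA, with intervals of -0.31 to 0.11 and -0.37 to 0.11, the narrowest of the 9 genes. An antisense gene, Gm16754, overlaps Keap1 and held 1426 counts over all libraries beside 25885 for Keap1. The sources used here do not state if reads were counted by strand, so reads of the pair cannot be told apart. Gclm and Txnrd1 are likewise overlapped by Gm17494 (873 counts beside 37385) and Gm38560 (1173 beside 31635) on the other strand.

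Nqo1 and Hmox1, the classical marker genes of NRF2 activity, did not part the phenolic acid groups from OVX-PBS. Nqo1 (chr8:107388225-107403206, minus strand) encodes a quinone reductase and read 19.4, 23.5 and 23.9 CPM in OVX-HA and 21.05 and 19.1 CPM in OVX-PPA, against 23.3, 23.9 and 18.7 CPM in OVX-PBS. Its log2 difference was 0.02 ± 0.14 in OVX-HA (95% interval -0.29 to 0.33) and -0.13 ± 0.16 in OVX-PPA (-0.48 to 0.22). Hmox1 (chr8:75093621-75100589, plus strand) encodes heme oxygenase 1, which breaks down heme to biliverdin, iron and carbon monoxide. It read 28.9, 37.75 and 24.9 CPM in OVX-HA and 26.75 and 52.0 CPM in OVX-PPA, against 35.2, 35.2 and 46.9 CPM in OVX-PBS. The 2 OVX-PPA libraries were thus near the bottom and at the top of the whole series. Its log2 difference was -0.36 ± 0.24 in OVX-HA (-0.89 to 0.17) and 0.01 ± 0.27 in OVX-PPA (-0.58 to 0.60), and without OVX-PPA replicate 1 or replicate 2 the value in OVX-PPA was 0.41 or -0.55. The summed level of 7 macrophage markers followed the same libraries, at 146.1, 160.9 and 138.8 CPM in OVX-HA and 123.8 and 226.7 CPM in OVX-PPA, against 148.5, 170.0 and 216.1 CPM in OVX-PBS. Their part in the Hmox1 values was not tested.

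Osgin1 (chr8:119434124-119446256, plus strand) encodes oxidative stress induced growth inhibitor 1 and had the lowest p of the 9 genes in OVX-PPA against OVX-PBS, though not in OVX-HA. It read 8.76, 7.93 and 9.997 CPM in OVX-HA and 6.73 and 7.46 CPM in OVX-PPA, against 11.8, 10.05 and 9.62 CPM in OVX-PBS. The 2 OVX-PPA libraries were the lowest of all 14, below every OVX-PBS library, while OVX-HA overlapped OVX-PBS. It was the only gene of the 9 whose OVX-PPA and OVX-PBS libraries did not overlap in either direction, against 20.4% of all genes in this comparison of 2 with 3 libraries. In OVX-PPA the log2 difference was -0.56 ± 0.16 (SE; 95% interval -0.91 to -0.22), or 0.677-fold (0.533 to 0.861). Its rank by p was 13 among 21761 genes, with an unadjusted p of 0.004 and an adjusted p of 1 (edgeR). It was already known from earlier results of these data to be near the top of that ranking, so its place is a description. The difference lay between -0.635 and -0.47 when single libraries of the compared groups were left out, and was -0.46 without OVX-PBS replicate 1 and OVX-HA replicate 2. In OVX-HA the log2 difference was -0.24 ± 0.14 (-0.54 to 0.06), and -0.10 without those 2 libraries. For the mean of both phenolic acids it was -0.40 ± 0.12 (-0.67 to -0.13), with an adjusted p of 0.999 (edgeR) and a rank of 25.

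Gclm and Gclc encode the modifier and the catalytic subunit of glutamate-cysteine ligase, which carries out the rate-limiting step of glutathione synthesis. Gclm (chr3:122245557-122270732, plus strand) read 80.6, 162 and 77.3 CPM in OVX-HA and 108 and 93.05 CPM in OVX-PPA, against 122, 88.2 and 91.3 CPM in OVX-PBS. Gclc (chr9:77754535-77794485, plus strand) read 52.9, 108 and 53.5 CPM in OVX-HA and 78.35 and 66.0 CPM in OVX-PPA, against 84.7, 56.1 and 61.5 CPM in OVX-PBS. For both genes OVX-HA replicate 2 was the highest of all 14 libraries and OVX-PBS replicate 1 the second highest, while the other 2 OVX-HA libraries lay below every OVX-PBS library. The log2 difference in OVX-HA was 0.09 ± 0.24 for Gclm (-0.44 to 0.62) and 0.08 ± 0.25 for Gclc (-0.45 to 0.62). Without OVX-HA replicate 2 and OVX-PBS replicate 1 these turned to -0.22 for Gclm and -0.18 for Gclc, with adjusted p of 0.682 and 0.693 (edgeR). In OVX-PPA the values were 0.005 ± 0.27 for Gclm and 0.10 ± 0.275 for Gclc. The same libraries stood out in 8 erythroid markers, which summed to 10810, 33770 and 10170 CPM in OVX-HA and 17650 and 15120 CPM in OVX-PPA, against 20210, 15410 and 15400 CPM in OVX-PBS.

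Srxn1 and Txnrd1 serve the thioredoxin and peroxiredoxin system, and only Srxn1 separated OVX-HA from OVX-PBS. Srxn1 (chr2:152105516-152111376, plus strand) encodes sulfiredoxin, which restores over-oxidized peroxiredoxins. It read 61.5, 54.4 and 61.7 CPM in OVX-HA and 52.0 and 51.1 CPM in OVX-PPA, against 47.1, 47.6 and 52.7 CPM in OVX-PBS. Every OVX-HA library was above every OVX-PBS library, the only gene of the 9 without overlap in either direction, against 4.08% of all genes. For both phenolic acids together against OVX-PBS 0 of the 9 genes were without overlap, against 1.55% of all genes. The log2 difference in OVX-HA was 0.27 ± 0.11 (SE; 95% interval 0.02 to 0.515), or 1.21-fold (1.02 to 1.43), with a rank of 169 and an adjusted p of 1 (edgeR). It lay between 0.23 and 0.34 when single libraries were left out and was 0.265 without OVX-PBS replicate 1 and OVX-HA replicate 2. In OVX-PPA the difference was 0.07 ± 0.13 (-0.205 to 0.34). Txnrd1 (chr10:82833951-82897712, plus strand) encodes the cytosolic thioredoxin reductase, a selenoprotein. It read 78.8, 69.1 and 85.3 CPM in OVX-HA and 80.0 and 75.05 CPM in OVX-PPA, against 90.45, 80.8 and 77.9 CPM in OVX-PBS, with overlap in both comparisons. Its log2 difference was -0.095 ± 0.11 (-0.34 to 0.15) in OVX-HA and -0.10 ± 0.13 (-0.37 to 0.18) in OVX-PPA.

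As a group the 9 genes lay close to the bulk of the genes. Against OVX-PBS, 4 were above and 5 below 0 in OVX-HA, with a median log2 difference of -0.06 beside 0.01 for all genes tested. In OVX-PPA the split was also 4 and 5, with a median of -0.06 beside -0.02. For the mean of both phenolic acids, 3 were above and 6 below, with a median of -0.06 beside -0.01. Without OVX-PBS replicate 1 and OVX-HA replicate 2, a choice made after seeing the data, 7 of 9 were below 0 in OVX-HA (median -0.10), 5 of 9 in OVX-PPA (-0.03) and 7 of 9 for their mean (-0.04).

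**Figure D2:**
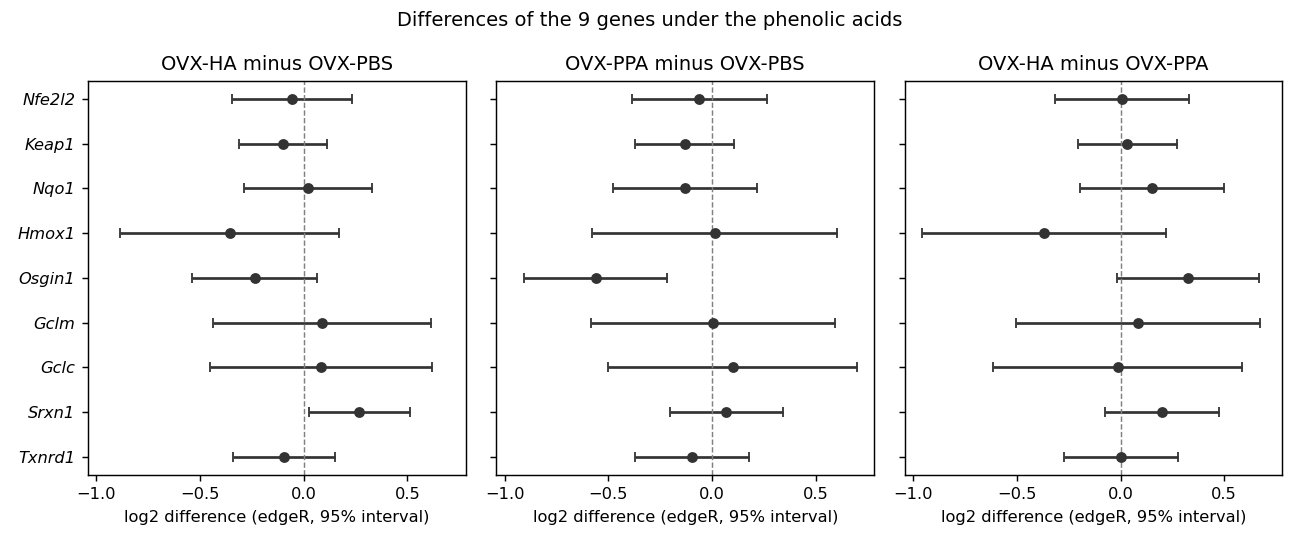
Log2 differences from the edgeR fit (horizontal axis) of the 9 genes for OVX-HA minus OVX-PBS, OVX-PPA minus OVX-PBS and OVX-HA minus OVX-PPA, with 95% intervals. Intervals that leave out 0 are those of Srxn1 in OVX-HA (0.02 to 0.515) and Osgin1 in OVX-PPA (-0.91 to -0.22), and neither passed adjustment over all genes.

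The 2 phenolic acids were then set against each other. Hippuric acid is a benzoyl group joined to glycine by an amide bond, whereas the other acid carries a propionic acid chain and a hydroxyl group on its ring. Without stated doses it is not known if they were matched. In OVX-HA against OVX-PPA, 0 of 9 genes passed (0% of all genes by edgeR and 0 genes by DESeq2), and 260 genes (1.19%) by edgeR and 344 by DESeq2 had an unadjusted p below 0.05. Osgin1 read 7.93 to 9.997 CPM in OVX-HA against 6.73 and 7.46 CPM in OVX-PPA, and Srxn1 read 54.4 to 61.7 CPM in OVX-HA against 51.1 and 52.0 CPM in OVX-PPA. These were the 2 of 9 genes whose libraries did not overlap in either direction, against 10.3% of all genes. The log2 difference was 0.325 ± 0.16 for Osgin1 (95% interval -0.02 to 0.67) and 0.20 ± 0.13 for Srxn1 (-0.08 to 0.48), both with an adjusted p of 1 (edgeR). For Hmox1 it was -0.37 ± 0.27 (-0.96 to 0.22) and for Nqo1 0.15 ± 0.16 (-0.20 to 0.50). The remaining 5 genes lay between -0.01 for Gclc and 0.08 for Gclm. Their intervals were widest for Gclc (-0.61 to 0.59) and Gclm (-0.51 to 0.67) and narrowest for Keap1 (-0.20 to 0.27). Differences between the acids within these intervals cannot be told apart by these data. In this comparison 7 of 9 genes were above 0 (median 0.03 beside 0.02 for all genes), and 4 of 9 without OVX-PBS replicate 1 and OVX-HA replicate 2.

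Zoledronic acid gives a non-phenolic treatment of the same OVX background. In OVX-ZA against OVX-PBS, 0 of 9 genes passed (0% of all genes by edgeR, with 731 genes or 3.36% at an unadjusted p below 0.05), while DESeq2 called 30 genes and listed 755 at that p. Osgin1 read 8.41, 7.55 and 7.96 CPM in OVX-ZA against 9.62 to 11.8 CPM in OVX-PBS. Its log2 difference was -0.40 ± 0.14 (95% interval -0.70 to -0.09), with an adjusted p of 0.899 (edgeR), and -0.29 without the 2 libraries named above. Nfe2l2 read 63.7, 60.5 and 62.1 CPM in OVX-ZA against 64.0 to 77.3 CPM in OVX-PBS (-0.165 ± 0.13), and Gclm read 81.1, 83.1 and 77.2 CPM in OVX-ZA against 88.2 to 122 CPM in OVX-PBS (-0.32 ± 0.24). These were the 3 of 9 genes without overlap in either direction, all lower in OVX-ZA, against 14.2% of all genes. Without OVX-PBS replicate 1 the Gclm difference was -0.16 and that of Nfe2l2 -0.08. The 6 others overlapped. Gclc read 58.7, 58.6 and 55.1 CPM in OVX-ZA (-0.23 ± 0.25), Hmox1 40.8, 30.8 and 27.6 CPM (-0.24 ± 0.24) and Keap1 67.7, 60.3 and 68.0 CPM (-0.12 ± 0.10). Without OVX-PBS replicate 1 the Gclc difference was -0.034 and that of Keap1 -0.053, and without OVX-PBS replicate 3 the Hmox1 difference was -0.01. Nqo1 read 22.0, 19.35 and 21.4 CPM in OVX-ZA (-0.07 ± 0.14), Srxn1 53.2, 49.15 and 57.4 CPM (0.12 ± 0.11) and Txnrd1 94.5, 74.9 and 88.3 CPM (0.05 ± 0.11). The median of the 9 genes was -0.165 beside -0.04 for all genes, and -0.035 without the 2 libraries. Markers of several cell types differed between the same libraries. All 8 osteoclast markers were higher in OVX-ZA, 6 of them without overlap (median log2 difference 1.26), summing to 1302 to 2375 CPM against 744.8 to 934.2 CPM in OVX-PBS. All 8 erythroid markers were lower in OVX-ZA without overlap (median -0.64), summing to 10660 to 11240 CPM against 15400 to 20210 CPM in OVX-PBS. All 8 neutrophil markers were lower too, 1 of them without overlap (median -0.375). Of the 8 osteoblast and osteocyte markers 6 were lower, 5 of them without overlap, and 2 higher (median -0.68). Their sum, 981.9 to 1638 CPM in OVX-ZA against 2910 to 3959 CPM in OVX-PBS, was mostly Col1a1 (1046 ± 280 against 3044 ± 514 CPM, SD, n = 3 each), while Sost averaged 11.3 ± 4.14 CPM in OVX-ZA against 6.95 ± 2.13 CPM in OVX-PBS and Ibsp 163 ± 44.6 against 141.6 ± 35.9 CPM. None of these markers passed adjustment, and their part in the values of the 9 genes was not tested.

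The effect of ovariectomy itself was read from OVX-PBS against sham. Of the 9 genes 0 passed (0% of all genes by edgeR and 0 genes by DESeq2), with 594 genes (2.73%) by edgeR and 684 by DESeq2 at an unadjusted p below 0.05. Srxn1 read 47.1, 47.6 and 52.7 CPM in OVX-PBS against 68.3, 70.2 and 53.9 CPM in sham, without overlap. Its log2 difference was -0.385 ± 0.11 (SE; 95% interval -0.63 to -0.14), or 0.766-fold (0.646 to 0.908), with a rank of 43 and an adjusted p of 0.913 (edgeR). Single libraries left out gave -0.495 to -0.33. The 3 liver markers were lower in OVX-PBS (median log2 difference -3.11), and the albumin gene Alb read 0.286, 2.07 and 0.720 CPM in OVX-PBS against 13.45, 13.3 and 0.829 CPM in sham, so the sham library low in Srxn1 was also the one low in Alb. Apoa1 (1.06, 1.77 and 0.216 CPM in sham) was lowest in that library too. Akr1d1 (35.2, 0.0563 and 0.252 CPM in sham) was instead lowest in sham replicate 2, the library highest in Srxn1. All 8 central nervous system markers were lower in OVX-PBS (median -0.96), while all 8 erythroid (0.30) and all 6 skeletal muscle markers (0.34) were higher, and none of these passed adjustment. Over all 14 libraries Srxn1 and the liver markers gave r = 0.54 and rho = 0.28 (adjusted permutation p of 0.305 and 0.687), and r = -0.18 without sham replicates 1 and 2. With the central nervous system markers Srxn1 gave r = 0.39 and rho = 0.60 (adjusted permutation p of 0.637 and 0.241). That r was 0.54 without OVX-HA replicate 2 and OVX-PBS replicate 1. The part of these markers in the Srxn1 values was not tested. The contrast of OVX-HA with OVX-PBS uses the same 3 OVX-PBS libraries, so the 2 Srxn1 differences are not independent. Nfe2l2 read 64.0 to 77.3 CPM in OVX-PBS against 61.8, 63.5 and 63.8 CPM in sham (0.14 ± 0.13), also without overlap, and the difference was 0.063 without OVX-PBS replicate 1. These were the 2 of 9 genes without overlap in either direction, against 7.63% of all genes. Nqo1 read 18.7 to 23.9 CPM in OVX-PBS against 16.5, 17.1 and 21.8 CPM in sham (0.25 ± 0.14). Osgin1 read 9.62 to 11.8 CPM in OVX-PBS against 12.7, 10.3 and 10.4 CPM in sham (-0.09 ± 0.14), and these groups held the highest Osgin1 means, 10.5 ± 1.17 CPM in OVX-PBS and 11.15 ± 1.35 CPM in sham (SD, n = 3 each). Keap1 (64.6, 62.8 and 67.8 CPM in sham), Hmox1 (35.9, 43.8 and 35.8), Gclm (83.9, 100 and 84.7), Gclc (56.3, 69.15 and 63.2) and Txnrd1 (78.6, 87.3 and 84.55) overlapped OVX-PBS, with log2 differences from -0.01 for Txnrd1 to 0.16 for Gclm. Without OVX-PBS replicate 1 those of Gclm and Keap1 were 0.003 and 0.059.

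A wider list of 59 genes of the NRF2 pathway, of which 56 were tested, was grouped into 6 roles. None of the 56 passed in any of the 6 comparisons (edgeR and DESeq2 named no gene of this list at an adjusted p below 0.05). In both OVX-HA and OVX-PPA against OVX-PBS 17 were above and 39 below 0, with medians of -0.06 and -0.07 beside 0.01 and -0.02 for all genes. In each, 30.4% of the list was above 0, beside 53.2% and 47% of all genes. For the mean of both phenolic acids 11 were above and 45 below 0 (19.6% above, beside 48.6% of all genes). Without OVX-PBS replicate 1 and OVX-HA replicate 2 the number below 0 was 42 in OVX-HA, 32 in OVX-PPA and 39 for their mean. Of all genes, 53.6%, 45.6% and 51.7% were then below 0. NADPH is the reducing power of glutathione and thioredoxin reductases, and not every gene listed under its supply makes it directly. The 6 genes listed under NADPH supply were all below 0 in OVX-HA (median -0.21). They ran from -0.32 for the transketolase gene Tkt to -0.11 for the transaldolase gene Taldo1. In OVX-PPA 5 of the 6 were below 0 (median -0.07), and none had an unadjusted p below 0.05 in either comparison. Fat markers also lay lower in OVX-HA, where 5 of 6 adipocyte markers (median -0.30) and both brown adipocyte markers (median -0.97) were below 0 without passing. The 6 adipocyte markers summed to 1386, 870.5 and 607.4 CPM in OVX-HA against 1417, 1604 and 830.7 CPM in OVX-PBS, and the 2 brown adipocyte markers to 239.7, 48.5 and 23.5 CPM in OVX-HA against 232.5, 294.9 and 105.6 CPM in OVX-PBS. Tkt read 371, 259 and 182 CPM in OVX-HA against 364, 336 and 315 CPM in OVX-PBS, and the isocitrate dehydrogenase gene Idh1 read 61.7, 45.4 and 43.3 CPM against 62.4, 59.6 and 53.7 CPM. Both stood in the same order as the fat markers over the 3 OVX-HA libraries, as did G6pdx (47.2, 39.5 and 38.1 CPM). Taldo1 (144, 196 and 109 CPM), Pgd (88.5, 89.35 and 65.5 CPM) and Me1 (199.9, 122.3 and 173.8 CPM) did not. In OVX-PBS, Tkt and Idh1 were highest in replicate 1, whereas both fat sums were highest in replicate 2. The part of the fat markers in these values was not tested. Of 12 regulators, among them the repressor Bach1 and the small MAF genes, 8 were below 0 in OVX-HA (median -0.06) and 9 in OVX-PPA (-0.10). The glutathione genes split 4 above and 11 below 0 in OVX-HA (median -0.125), and 7 and 8 in OVX-PPA. The 11 detoxification genes split 4 to 7 in OVX-HA and 2 to 9 in OVX-PPA. The 8 heme and iron genes split evenly in OVX-HA and 3 to 5 in OVX-PPA, and the 4 thioredoxin and peroxiredoxin genes split 1 to 3 in both. Of 6 antioxidant enzymes not counted as classical NRF2 targets, such as catalase (Cat) and superoxide dismutase 2 (Sod2), 5 were below 0 in OVX-HA (median -0.17) and 6 in OVX-PPA (-0.15).

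**Figure D3:**
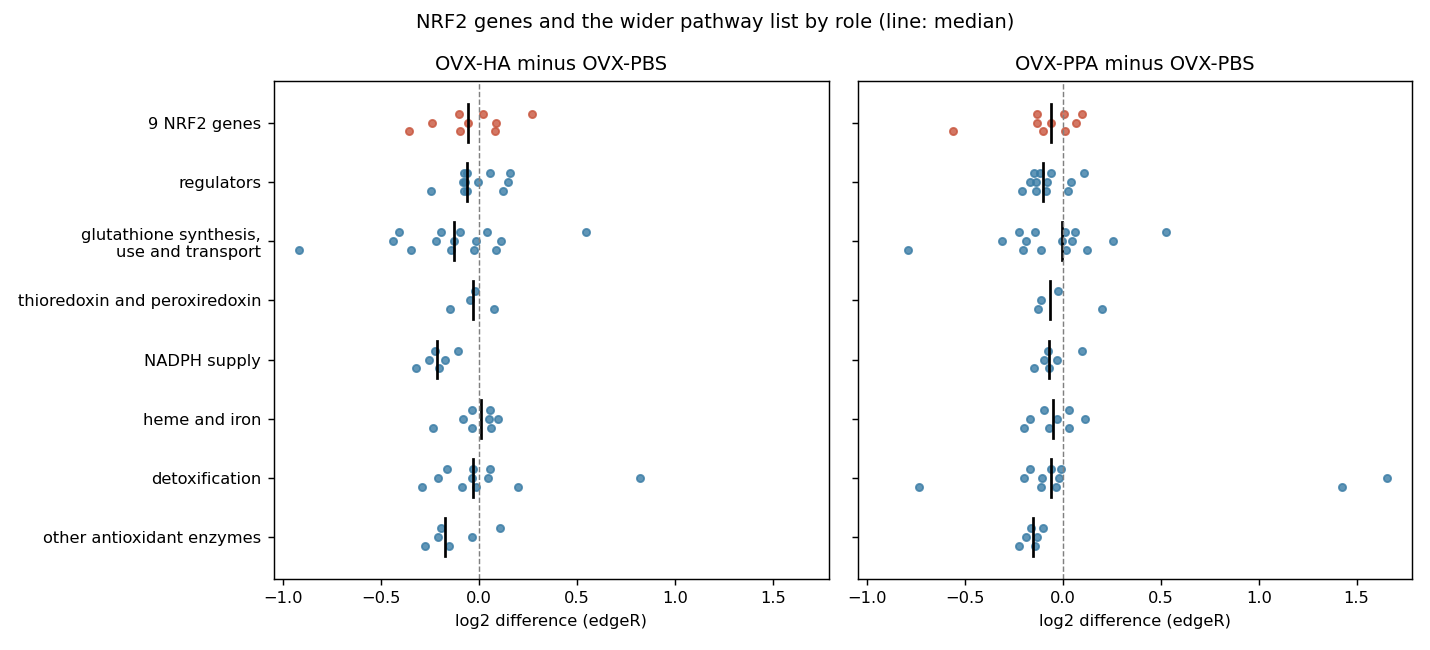
Log2 differences from the edgeR fit (horizontal axis) of single genes, as points, for the 9 NRF2 genes, the 6 role groups of the wider list and 6 other antioxidant enzymes, in OVX-HA minus OVX-PBS and OVX-PPA minus OVX-PBS; black lines are medians. The 6 genes listed under NADPH supply are all below 0 in OVX-HA (median -0.21), as are 5 of 6 adipocyte markers (median -0.30, not drawn). The points farthest right in OVX-PPA are Ugt1a6b (1.66) and Abcc2 (1.43).

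The 3 genes of the wider list with the lowest p in each comparison came to 9 genes in all, 5 of them of the detoxification group, and some recur in comparisons that share libraries. Ugt1a6b, which encodes a UDP-glucuronosyltransferase, read 1.26, 1.405 and 1.21 CPM in OVX-HA, 2.55 and 2.075 CPM in OVX-PPA, and 0.686, 0.579 and 0.906 CPM in OVX-PBS. Both phenolic acid groups were above OVX-PBS without overlap, with log2 differences of 0.82 ± 0.41 in OVX-HA and 1.66 ± 0.45 in OVX-PPA (adjusted p of 1 for both, edgeR). Genes without overlap in either direction made up 4.08% of all genes for OVX-HA and 20.4% for OVX-PPA, which holds 2 libraries. Every zoledronic acid library, at 2.97, 2.64 and 1.11 CPM, lay above OVX-PBS too, with a log2 difference of 1.595 ± 0.42. There 14.2% of all genes were without overlap. The separation of Ugt1a6b from OVX-PBS was thus not limited to the phenolic acids. Ugt1a6a read 3.31 and 4.28 CPM in OVX-PPA against 5.84 to 6.975 CPM in OVX-PBS, a log2 difference of -0.73 ± 0.27. Ugt1a6a and Ugt1a6b share exons of the Ugt1a locus, so the split of reads between them is uncertain. Their sum was 7.56 ± 1.76 CPM in OVX-HA and 6.11 ± 0.350 CPM in OVX-PPA, against 7.075 ± 0.509 CPM in OVX-PBS (SD, n = 3, 2 and 3). Abcc2, an efflux transporter of conjugates, read 0.543 and 1.46 CPM in OVX-PPA against 0.229 to 0.560 CPM in OVX-PBS (1.43 ± 0.50). Aldh1a1 and Mgst1, a retinal dehydrogenase and a microsomal glutathione transferase, were the others named in OVX-HA, with log2 differences of -0.29 ± 0.16 and -0.44 ± 0.28. In OVX-HA against OVX-PPA the lowest p fell on Ugt1a6a (0.72 ± 0.27), Abcc2 (-1.23 ± 0.49) and Ugt1a6b (-0.83 ± 0.43). In OVX-ZA, Ptgr1 (-0.65 ± 0.25) and the glutathione conjugate exporter Abcc1 (0.24 ± 0.11) followed Ugt1a6b, and in OVX-PBS against sham the genes named were the NADPH source G6pdx (-0.51 ± 0.20), Ugt1a6b (-1.04 ± 0.41) and Sesn2 (-0.20 ± 0.10). None of them passed adjustment.

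The 9 genes did not vary as a block across the libraries. Correlations of log2 CPM were computed over all 14 libraries for 36 pairs of the genes and for 117 pairs of a gene and a marker list, with two-sided permutation p-values (100000 resamples) and Benjamini-Hochberg adjustment over the 153 relations. The libraries span 5 groups, and shares of one tissue mixture tie all genes together. Gclm and Gclc were the closest pair, with Pearson r = 0.98 and Spearman rho = 0.91 (permutation p = 1e-05, the smallest that the resamples can give, and 2e-05; adjusted 0.00038 and 0.00102). Leaving out the 2 libraries farthest from the median, OVX-HA replicate 2 and OVX-PBS replicate 1, gave r = 0.92. Nfe2l2 followed Gclm with r = 0.86 and rho = 0.75 (permutation p = 0.0003 and 0.00322, adjusted 0.00459 and 0.0411), but r was 0.48 without the same 2 libraries, so the relation rests on those samples. Keap1 and Nqo1 gave r = 0.72 and rho = 0.76 (permutation p = 0.00311 and 0.00212, adjusted 0.0366 and 0.0295), and r = 0.78 without their 2 farthest libraries. Nfe2l2 with Hmox1 gave r = 0.48 and rho = 0.60 (adjusted permutation p of 0.457 and 0.241), and r = 0.79 without OVX-HA replicate 2 and OVX-PBS replicate 1.

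Single genes instead followed markers of different cell types. Gclc followed the 8 erythroid markers, hemoglobin and heme synthesis genes among them, with r = 0.95 and rho = 0.90 (permutation p = 1e-05 for both, adjusted 0.00038 and 0.00076), and r = 0.83 without OVX-HA replicate 2 and OVX-PBS replicate 1. Gclm gave r = 0.95 and rho = 0.86 with the same list (adjusted permutation p of 0.00038 and 0.00581), and r = 0.83 without those libraries. Both also followed the 8 osteoblast and osteocyte markers, with r = 0.89 and rho = 0.93 for Gclm and r = 0.86 and rho = 0.83 for Gclc (all 4 adjusted permutation p at or below 0.00803), and r = 0.93 and 0.87 without their 2 farthest libraries, OVX-HA replicate 2 and OVX-ZA replicate 2. Nfe2l2 gave r = 0.87 and rho = 0.82 with the erythroid markers (adjusted permutation p of 0.00131 and 0.00803), and r = 0.59 without OVX-HA replicate 2 and OVX-PBS replicate 1. With the osteoblast and osteocyte markers Nfe2l2 gave r = 0.86 and rho = 0.79 (adjusted permutation p of 0.00191 and 0.017), and r = 0.82 without OVX-HA replicate 2 and OVX-ZA replicate 2. The pair left out for this list differs from the pair left out for the erythroid list. Without OVX-HA replicate 2 and OVX-PBS replicate 1, r with the osteoblast and osteocyte markers was 0.76 for Gclm, 0.66 for Gclc and 0.68 for Nfe2l2. Hmox1 followed the mean of 7 markers of iron-recycling and resident macrophages, with r = 0.89 and rho = 0.84 (permutation p = 4e-05 and 0.00031, adjusted 0.00122 and 0.0079), and r = 0.79 without the 2 farthest libraries. Single markers did not all go along. The receptor gene Cd163 was lowest of all 14 libraries in OVX-HA replicate 2 (12.7 CPM), where Hmox1 read 37.75 CPM. Vcam1 had the highest level of the 7 markers (mean 60.7 CPM). Hmox1 followed the neutrophil markers too, with r = 0.85 and rho = 0.87 (adjusted permutation p of 0.00306 and 0.00459), and r = 0.78 without the 2 farthest libraries. Nqo1 followed skeletal muscle markers with r = 0.70 and rho = 0.58 (permutation p = 0.00634 and 0.0328), which did not pass adjustment at 0.0606 and 0.267. Osgin1, Srxn1 and Txnrd1 had no relation with any of the 13 marker lists that passed adjustment. Nfe2l2, Gclm and Gclc were negatively related to the central nervous system markers with r of -0.87, -0.83 and -0.82 and rho of -0.82, -0.49 and -0.58 (adjusted permutation p for r of 0.0108, 0.0459 and 0.0387). This rested on the 2 libraries almost without those transcripts, since r was -0.35, 0.12 and -0.03 in the other 12.

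**Figure D4:**
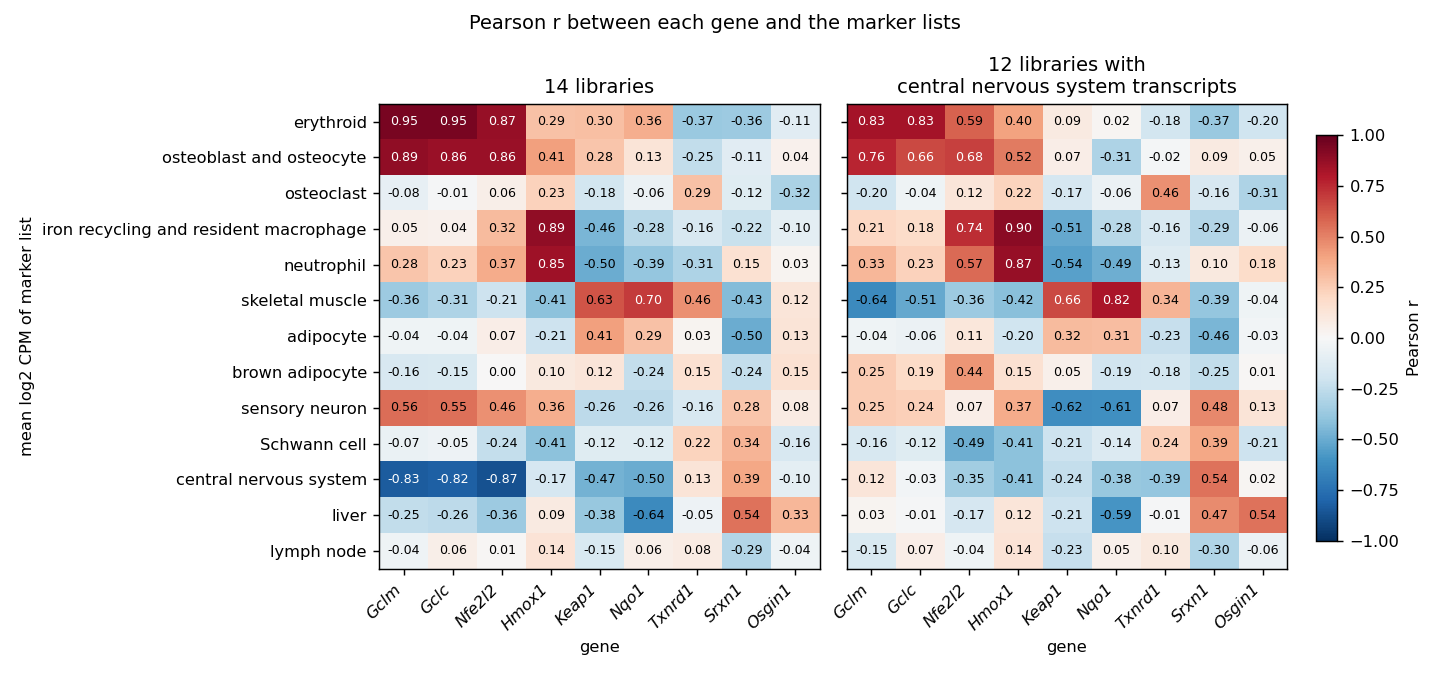
Pearson r between log2 CPM of each gene (horizontal axis) and the mean log2 CPM of each marker list (vertical axis), over all 14 libraries on the left and on the right over the 12 libraries other than OVX-HA replicate 2 and OVX-PBS replicate 1; color runs from -1 to 1. Gclm and Gclc are at 0.95 with erythroid markers over 14 libraries and 0.83 over 12, and Hmox1 is at 0.89 and 0.90 with macrophage markers.

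**Figure D5:**
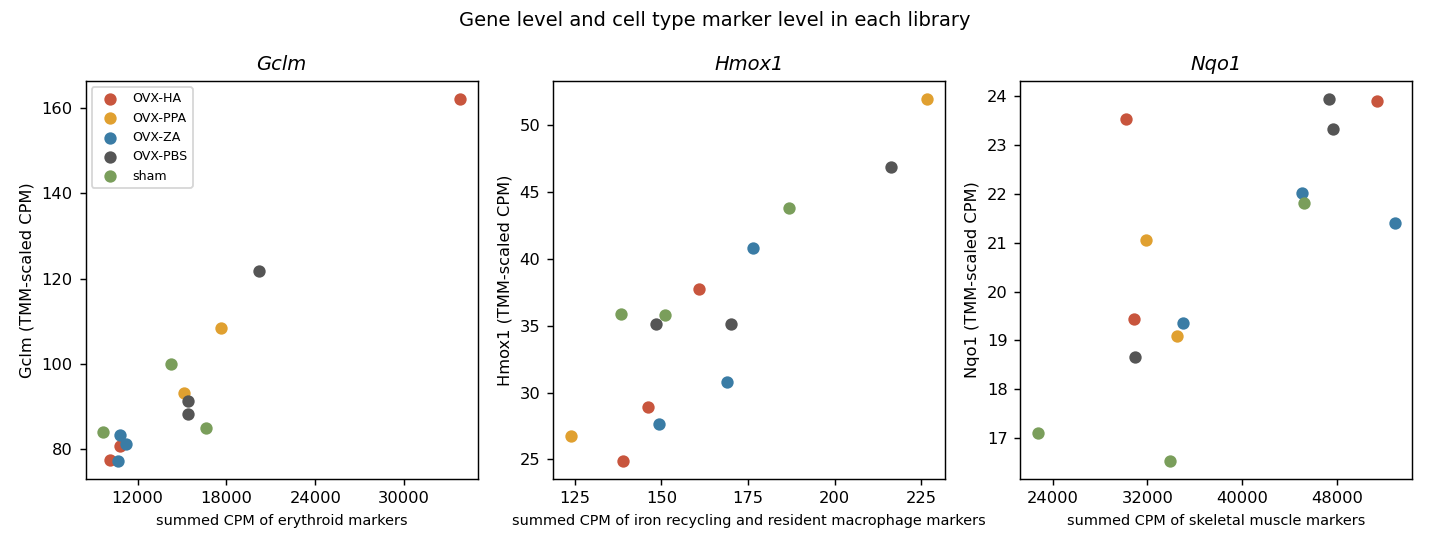
Level of Gclm, Hmox1 and Nqo1 in TMM-scaled CPM (vertical axes, which do not start at 0) against the summed CPM of erythroid, macrophage and skeletal muscle markers (horizontal axes) in each of the 14 libraries, colored by group. OVX-HA replicate 2 is at the far end for Gclm (162 CPM at 33770 CPM of erythroid markers), and the 2 OVX-PPA libraries are at opposite ends for Hmox1 (52.0 and 26.75 CPM).

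The genes most like each member over the 14 libraries were taken from 13626 genes with a mean of at least 5 CPM, by Pearson r of log2 CPM and as a description. Gclc was closest to A730089K16Rik (r = 0.987), the transferrin receptor gene Tfrc (0.984), which takes up iron in red cell precursors, and the condensin gene Ncapg2 (0.981). Gclm was closest to A730089K16Rik (0.983), Timeless (0.983) and Tlnrd1 (0.980). Hmox1 was closest to the immunoglobulin A heavy chain gene Igha (0.926), the ficolin gene Fcna (0.897) and the myeloid receptor gene Cd300a (0.891). Keap1 was closest to Eif2b1 (0.950), Cops5 (0.950) and Sar1a (0.944), Nqo1 to Map3k7cl (0.916), Dnase1l1 (0.903) and Rangrf (0.897), and Nfe2l2 to Zfand2b (0.943), Rbm22 (0.941) and Eif1ad (0.937). Srxn1 was closest to Pdlim2 (0.904), Tcp11l1 (0.901) and Nisch (0.880), and Txnrd1 to Rab7 (0.880), Trim63 (0.872) and Slc35e4 (0.841). Osgin1 had the weakest nearest genes, Abhd14a (0.824), Gamt (0.798) and Shmt1 (0.798). No member was among the 3 nearest genes of another member.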

How the data were processed

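Per the labels' protocols, poly(A) RNA of tibia was made into stranded mRNA libraries and sequenced single-end to 75 nt. Per the submitters' processing notes, build mm10, Partek, STAR 2.7.8a, Bowtie2 2.2.5 and CASAVA 1.8.1 were used. How reads were assigned to genes, and if by strand, is not given in the sources used here. The authors deposited estimated counts per gene symbol, not normalized, of which 20.7% were not whole to within 0.01; they were rounded here. Of 55291 symbols, 16316 were at 0 throughout, and 53292 (96.4%) matched GENCODE M21, the source of coordinates and exon lengths. A deposited table of TMM-normalized values was not used.

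Genes were filtered by filterByExpr per group, scaled by TMM and fitted in 1 edgeR quasi-likelihood model (edgeR 4.0.16, R 4.3.3) of 14 libraries with 9 residual degrees of freedom and a common biological coefficient of variation of 25%. The 6 comparisons were two-sided. Log2 CPM for correlations used a prior count of 2. Alternatives were DESeq2 1.42.0, RLE scaling, no filter, a replicate block, the compared groups only, and libraries left out. The edgeR step was tested on simulated counts for OVX-HA and OVX-PPA against OVX-PBS. The planted changes were larger than those seen for the 9 genes in these comparisons. In the wider list, the 3 genes with the lowest p per comparison were named. The members and lists were chosen with earlier results of these data known.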

Additional observations from a re-analysis of the deposited data

How the results depend on the processing

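In all 9 genes and 6 comparisons no alternative gave a call, and no gene of the wider list was called either. Over all genes, edgeR called 0 in OVX-ZA against OVX-PBS, whereas 3 were called with no filter on low counts, 6 without OVX-PBS replicate 1 and OVX-HA replicate 2, 1 with the compared groups only and 30 by DESeq2, and 0 to 1 when single libraries were left out. The median of the 9 genes there was -0.165, and -0.035 without those 2 libraries (-0.222 to -0.053 with single libraries left out). Single libraries left out moved that median from -0.168 to 0.025 in OVX-HA against OVX-PBS and from -0.006 to 0.132 in OVX-HA against OVX-PPA. The causes were not tested.

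Signs turned under these alternatives. With no filter, OVX-HA against OVX-PPA gave -0.019 for Nfe2l2 and -0.022 for Txnrd1. Without OVX-PBS replicate 1 and OVX-HA replicate 2, OVX-HA against OVX-PBS gave -0.006 for Nqo1, -0.216 for Gclm, -0.177 for Gclc and 0.017 for Txnrd1; OVX-PPA against OVX-PBS gave 0.023 for Nfe2l2 and -0.048 for Hmox1; the mean of both acids gave -0.024 for Gclm. There OVX-HA against OVX-PPA gave -0.212 for Nfe2l2, -0.001 for Keap1 and -0.383 for Gclm, with 5 of 9 genes below 0 in place of 2, and OVX-PBS against sham gave -0.073 for Gclc.

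With single libraries left out, OVX-HA against OVX-PBS ranged over -0.341 to 0.281 for Gclc, -0.347 to 0.275 for Gclm, -0.246 to 0.067 for Nfe2l2 and -0.064 to 0.108 for Nqo1. OVX-PPA against OVX-PBS ranged over -0.028 to 0.294 for Gclc, -0.107 to 0.166 for Gclm, -0.553 to 0.412 for Hmox1 and -0.133 to 0.018 for Nfe2l2. The mean of both acids ranged over -0.102 to 0.288 for Gclc, -0.153 to 0.208 for Gclm, -0.462 to 0.027 for Hmox1, -0.137 to 0.022 for Nfe2l2 and -0.122 to 0.012 for Nqo1. OVX-HA against OVX-PPA ranged over -0.478 to 0.156 for Gclc, -0.389 to 0.270 for Gclm, -0.770 to 0.183 for Hmox1, -0.061 to 0.122 for Keap1, -0.219 to 0.129 for Nfe2l2 and -0.067 to 0.049 for Txnrd1. OVX-ZA against OVX-PBS ranged over -0.025 to 0.138 for Txnrd1. OVX-PBS against sham ranged over -0.096 to 0.216 for Gclc, -0.166 to 0.111 for Hmox1, -0.180 to 0.017 for Osgin1 and -0.073 to 0.013 for Txnrd1.

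The labels' replicate numbers did not pair the samples: same-numbered libraries correlated between -0.565 and 0.496 in their deviations from the group means, and 3 of 14 libraries correlated best with their own number. The replicate block left 0 genes called in each comparison. It turned Hmox1 to -0.074 and Gclm to -0.079 in OVX-PPA against OVX-PBS, Gclm to -0.015 for the mean of both acids, and Gclc to 0.023 and Txnrd1 to -0.013 in OVX-HA against OVX-PPA.

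Groups held 2 or 3 libraries, and library totals ran from 11.9 to 35.4 M counts. The 95% intervals for Gclm, Gclc and Hmox1 reached beyond 0.5 on the log2 scale in all 6 comparisons. Those for Osgin1, Srxn1 and Nqo1 did so in some of them. Differences within an interval cannot be told apart by these data. The lowest counts, down to 102 for Osgin1 in OVX-ZA replicate 1, add counting error.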

Other observations

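Slc7a11, the cystine transporter gene of the glutathione list, was picked out after its values were seen. It read 10.2, 1.90 and 9.67 CPM in OVX-HA and 7.33 and 7.04 CPM in OVX-PPA, against 3.77, 4.42 and 6.64 CPM in OVX-PBS. OVX-HA replicate 2 and OVX-PBS replicate 1, the libraries almost without central nervous system transcripts, had the lowest levels of all 14. Its log2 difference was 0.54 in OVX-HA and 0.53 in OVX-PPA, and neither passed. Levels above those of OVX-PBS were not limited to the phenolic acids. Slc7a11 read 7.01, 10.5 and 10.15 CPM in OVX-ZA and 8.13, 7.61 and 3.86 CPM in sham.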
